A study of Homo sapiens with 24 samples.

Results

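The SERPINB cluster on human chromosome 18 holds 10 genes for serpins of clade B: SERPINB5, SERPINB12, SERPINB13, SERPINB4, SERPINB11, SERPINB3, SERPINB7, SERPINB2, SERPINB10, and SERPINB8, in the order in which they begin along the chromosome. They were chosen by name, and are 10 of 20098 protein-coding genes of the GENCODE annotation of hg19. The binding of the S100A8 and S100A9 proteins was examined over the interval from the first to the last of these genes with 50 kb on each side (hg19, chr18:61094191-61737013, 643 kb). This interval also holds the protein-coding genes HMSD and ENSG00000289724, and it contains 13 of 30322 S100A8/A9 sites found in the genome.

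Serpins are protease inhibitors that offer an exposed loop as bait, and the protease that cleaves the loop is trapped on the inhibitor. Serpins of clade B lack a classical signal peptide and act mostly inside cells, and several of those on chromosome 18 are genes of stratified and glandular epithelium. SERPINB5 (maspin) is a serpin of mammary and other epithelial cells that does not act as a classical inhibitor. SERPINB2 inhibits the urokinase plasminogen activator. SERPINB3 and SERPINB4 are the squamous cell carcinoma antigens, which inhibit cysteine proteases of the papain family and chymotrypsin-like serine proteases, respectively. SERPINB13 is an inhibitor of cathepsin L in keratinocytes, SERPINB8 inhibits furin, SERPINB7 (megsin) is known for its loss in a keratosis of palms and soles, and SERPINB10 (bomapin) is a serpin of blood-forming cells. SERPINB12 inhibits trypsin-like proteases.

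MCF-10A is a nontransformed line of human breast epithelial cells, and the cells used here were made from it by adding ER-Src, in which the viral Src kinase is joined to a part of the estrogen receptor that binds tamoxifen. All cells carried ER-Src and stably expressed either S100A8-Flag or S100A9-Flag, introduced with a retroviral vector as open reading frames with a C-terminal tag, beside their own untagged S100A8 and S100A9. Whether each line is a clone or a pool is not given in the sources used here. Cells were kept for 24 hours in 1 µM 4-hydroxytamoxifen (TAM), which activates Src and transforms them, or in the ethanol vehicle (EtOH). Flag ChIP was done after protein-protein and formaldehyde cross-linking, and peak lists of 11 libraries were used. The Flag ChIP of cells with untagged protein, a negative control of the study, was not analysed here, so enrichment by the antibody alone was not tested. S100A8-Flag has 2 EtOH and 3 TAM replicates, and S100A9-Flag has 3 replicates under each treatment. A library is called here by its protein, treatment, and replicate number, such as S100A8 TAM 1.

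Each list gives a peak's summit, its fold enrichment over the chromatin input of the same sample, and the −log10 of its q value. Peaks with q ≤ 1e-07 were used, and weaker peaks of the lists, down to q = 0.05, are mentioned as such. The EtOH libraries hold between 1853 and 4609 peaks with q ≤ 1e-07, and the TAM libraries between 21518 and 40735. Read numbers are not in the lists, so depth is unknown. A library with fewer peaks may be less deeply sequenced or have weaker binding, and these cannot be told apart. As a check of the labels, a peak summit over a coding exon of S100A9 was looked for, and 6 of 6 libraries of S100A9-Flag had one, as had 1 of 5 libraries of S100A8-Flag. No such peak was found over S100A8 in 5 S100A8-Flag or 6 S100A9-Flag libraries, which leaves the S100A8 label unchecked. Since 1 S100A8-Flag library shares the S100A9 peak, and the origin of that peak was not tested, the S100A9 label is not settled either.

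A site is a merged region with peaks in at least 2 replicates of a condition, and sites of the 4 conditions were merged once more. The 13 sites are numbered here from the SERPINB5 side. Sequences of 5 of them are shown from 100 bp before to 100 bp after the summit, on the plus strand of hg19, with capitals for consensus motifs found by letter on either strand. Sites 4, 5, 10, and 11 are those called in most libraries among the sites whose windows lie outside exons, and site 9, which holds the peak of highest fold enrichment in the interval, was added after its values were seen. Site 4 lies between genes, 22.2 kb upstream of the SERPINB5 TSS, and its capitals mark an AP-1 motif.
Site 4, chr18:61121850-61122050: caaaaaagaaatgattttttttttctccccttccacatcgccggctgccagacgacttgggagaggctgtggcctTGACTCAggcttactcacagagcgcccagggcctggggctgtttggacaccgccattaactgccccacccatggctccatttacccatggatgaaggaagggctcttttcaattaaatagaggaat
Site 5, at the SERPINB5 promoter with its summit 180 bp upstream of the TSS, has an ETS motif in capitals near the far edge of the window.
Site 5, chr18:61143911-61144111: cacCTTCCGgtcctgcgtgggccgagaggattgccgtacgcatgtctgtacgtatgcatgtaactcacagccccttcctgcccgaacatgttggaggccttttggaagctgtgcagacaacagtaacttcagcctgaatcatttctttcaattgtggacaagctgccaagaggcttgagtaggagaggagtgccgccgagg
Site 9, in an intron of SERPINB7, has an AP-1 motif 7 bp to 13 bp from the summit.
Site 9, chr18:61455780-61455980: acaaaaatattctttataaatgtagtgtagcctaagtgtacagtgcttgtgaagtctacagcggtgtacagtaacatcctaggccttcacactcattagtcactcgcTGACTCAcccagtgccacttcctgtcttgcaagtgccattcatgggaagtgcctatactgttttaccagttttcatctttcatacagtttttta
Site 10, upstream of SERPINB2, has a STAT3 motif and an ETS motif in capitals, both more than 60 bp from the summit.
Site 10, chr18:61536663-61536863: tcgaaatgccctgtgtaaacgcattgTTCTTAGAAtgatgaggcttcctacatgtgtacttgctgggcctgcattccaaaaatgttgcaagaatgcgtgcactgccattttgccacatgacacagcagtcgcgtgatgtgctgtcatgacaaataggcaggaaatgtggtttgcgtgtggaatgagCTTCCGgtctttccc
Site 11, just past the end of SERPINB10, has an ETS, a KLF/SP1, and a CTCF motif, in that order.
Site 11, chr18:61603449-61603649: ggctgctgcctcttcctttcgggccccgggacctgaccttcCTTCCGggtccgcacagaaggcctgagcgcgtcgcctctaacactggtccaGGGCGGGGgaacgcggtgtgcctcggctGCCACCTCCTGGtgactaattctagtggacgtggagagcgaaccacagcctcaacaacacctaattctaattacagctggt

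S100A8/A9 peaks over the SERPINB cluster were found mostly in TAM. In all, 72 peaks with q ≤ 1e-07 had their summit in the interval in the 6 TAM libraries, and 4 in the 5 EtOH libraries. S100A8-Flag gave 1 peak in EtOH 1, 1 in EtOH 2, 12 in TAM 1, 9 in TAM 2, and 10 in TAM 3. S100A9-Flag gave no peak in EtOH 1, 1 in EtOH 2, 1 in EtOH 3, 12 in TAM 1, 9 in TAM 2, and 20 in TAM 3. Every TAM library was above every EtOH library, for both proteins. The mean number was 1 ± 0 in EtOH (SD, n = 2) and 10.3 ± 1.53 in TAM (n = 3) for S100A8-Flag, and 0.667 ± 0.577 in EtOH (n = 3) and 13.7 ± 5.69 in TAM (n = 3) for S100A9-Flag.

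Averaged over the proteins, TAM libraries had 11.2 more peaks in the interval than EtOH libraries (exact permutation test within each protein, two-sided, p = 0.01, the smallest that 200 arrangements allow). Taken alone, the difference was 9.33 for S100A8-Flag and 13 for S100A9-Flag, where the exact permutation tests cannot go below p = 0.2 and p = 0.1, and gave those values. The lists of TAM libraries are longer over the whole genome, so the count was also set against the length of each list. Per 10000 peaks of a library, the interval held 2.31 and 2.17 in S100A8 EtOH 1 and 2, and 4.08, 3.73, and 4.65 in S100A8 TAM 1, 2, and 3. For S100A9-Flag this share was 0, 5.40, and 2.18 in EtOH 1, 2, and 3, and 4.71, 3.75, and 4.91 in TAM 1, 2, and 3. S100A9 EtOH 2, which has the shortest list and a single peak in the interval, had the highest share of all libraries. The share was higher in TAM by 1.92 per 10000 (exact permutation test, p = 0.04), and when each of 11 libraries was left out in turn, p lay between 0.02 and 0.12 and was under 0.05 only without S100A9 EtOH 2. When only the 1853 peaks of lowest q value were kept in each library, the direction turned, with a difference of −0.5 peaks from EtOH to TAM (exact permutation test, p = 0.3). With equal lists the share is the same count rescaled, −2.70 peaks per 10000. No site was then confident in the interval. The EtOH libraries held at most 1 peak each in the interval, so that this direction rests on few peaks.

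**Figure D1:**
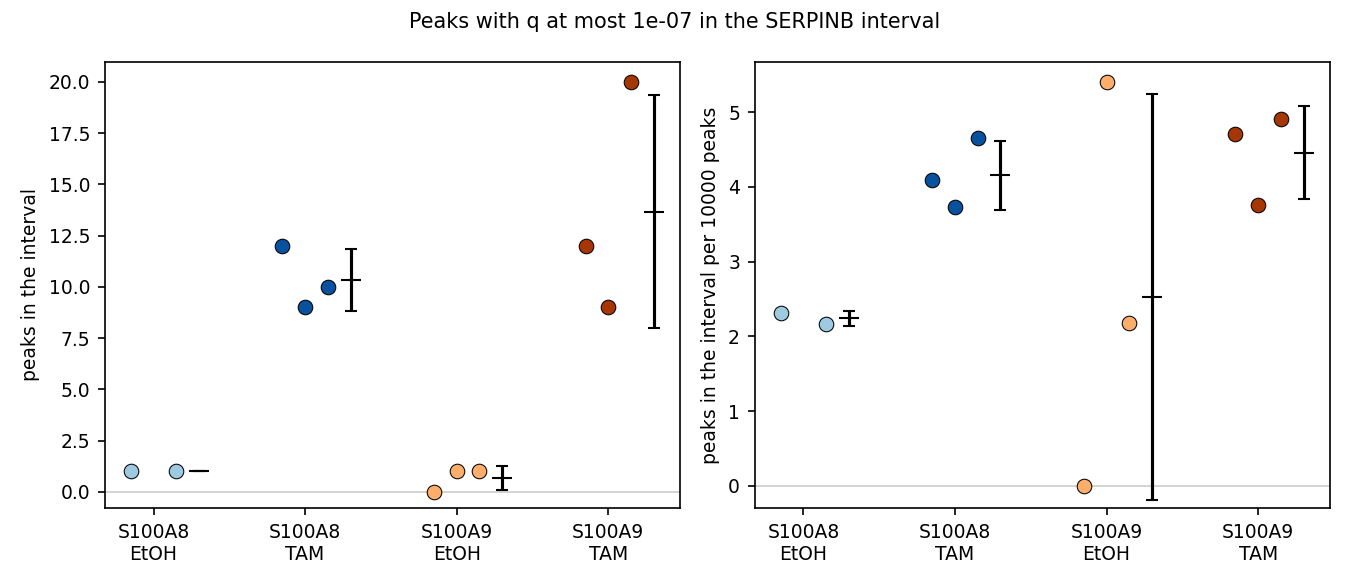
Peaks with q ≤ 1e-07 in the SERPINB interval, as a number (left) and per 10000 peaks of the library (right). Each circle is a library, and the black bars give the mean ± SD of the 2 or 3 replicates to their left. The 6 TAM libraries hold 9 to 20 peaks and the 5 EtOH libraries 0 or 1, whereas S100A9 EtOH 2 has the highest share.

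The proteins differed by less than the spread between libraries. In TAM, S100A9-Flag had 3.33 more peaks in the interval than S100A8-Flag (exact permutation test, p = 0.7), and 0.301 more per 10000 peaks (p = 0.5 by the same exact test, an alternative added after the data were seen). The numbers of peaks overlapped between the groups, and without S100A9 TAM 3, which has the longest list, the difference was 0.167 peaks. In EtOH the difference was −0.333 peaks (exact permutation test, p = 1). The effect of TAM was 3.67 peaks larger for S100A9-Flag than for S100A8-Flag, a difference smaller than the spread between libraries allows to call (exact permutation test, p = 0.46).

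The 13 sites correspond to 20.2 sites per Mb, beside 7.29 per Mb on chromosome 18 and 9.99 per Mb on chromosomes 1 to 22 and X, given as a description without a test. Of the 72 TAM peaks in the interval, 53 lay at the 13 sites, and so did 3 of the 4 EtOH peaks. No site was confident in EtOH for either protein, and 4.01% of all sites in the genome were so for S100A8-Flag and 4.54% for S100A9-Flag. In TAM, 10 sites (76.9%) were confident for S100A8-Flag, beside 60.1% of all sites, and 11 (84.6%) for S100A9-Flag, beside 82.3%. All 13 sites thus entered through TAM libraries. A test of TAM against EtOH calls at a single site would reuse the calls that admitted it, and no p value is given for single sites. Over all 30322 sites, that exact permutation test cannot go below p = 0.01 with its 200 arrangements, a value that 1421 sites reached. It gave no Benjamini-Hochberg adjusted p under 0.05 (smallest 0.213), and 5456 sites had an unadjusted p under 0.05. Given this floor and the reuse of calls, no conclusion about TAM is drawn from these counts. Both proteins were confident in TAM at 8 sites (61.5%), beside 42.8% of all sites in the genome. Sites 1 and 6 were confident for S100A8-Flag only and sites 3, 8, and 9 for S100A9-Flag only. Each of these but site 8 had a peak with q ≤ 1e-07 in 1 library of the other protein, so that the difference between the proteins rests on single libraries and was not tested. A peak with q ≤ 1e-07 was found in at least 1 EtOH library at 2 of 13 sites (15.4%), site 5 at SERPINB5 and site 13 at SERPINB8, beside 31.1% of all sites. For EtOH peaks of any q value, the share of all sites is not given here.

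**Figure D2:**
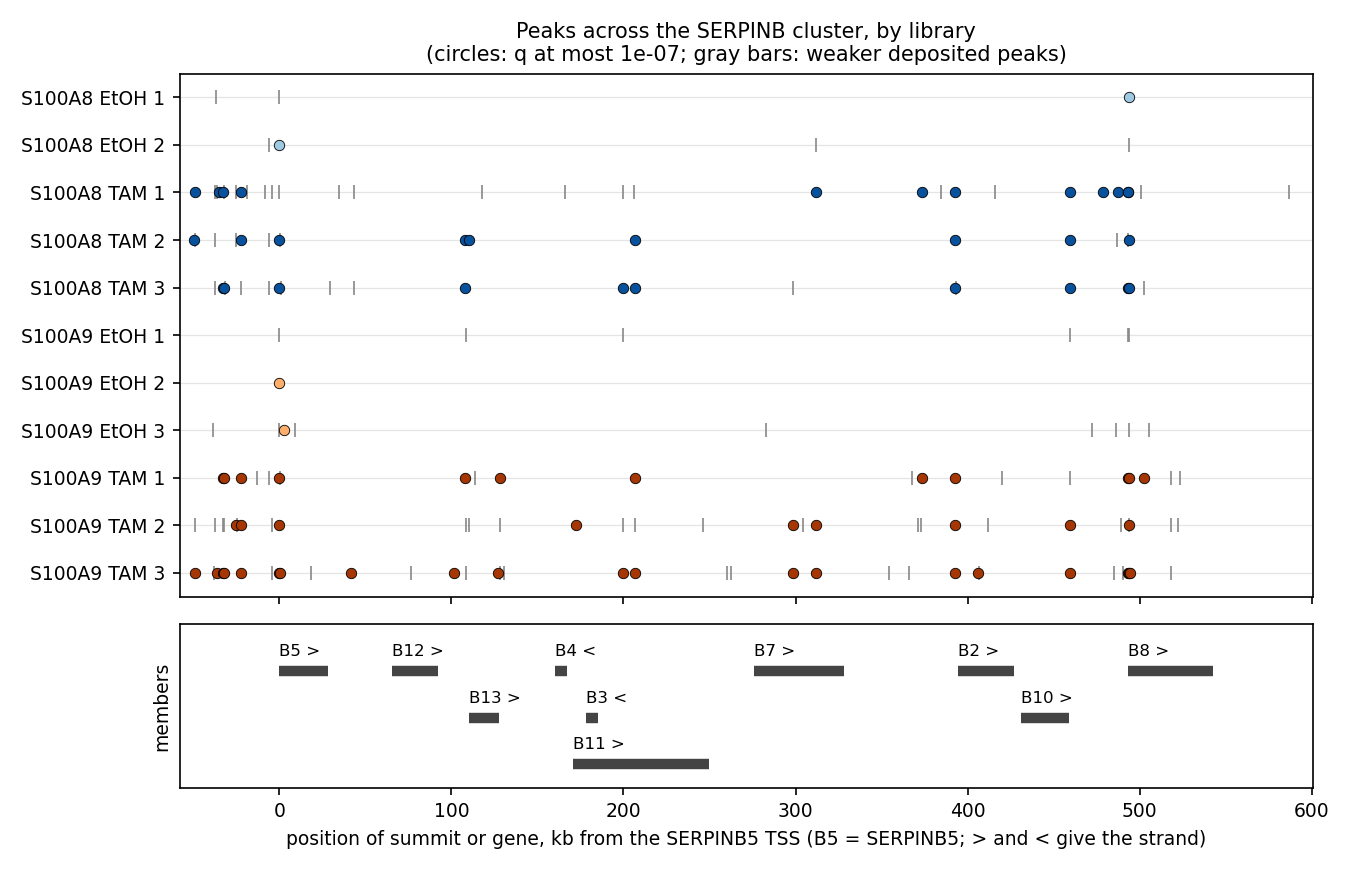
Positions of all deposited peaks in the interval, in kb from the SERPINB5 TSS, with 1 line for each library and the 10 genes beneath. Circles have q ≤ 1e-07 and gray bars are weaker peaks. Circles of TAM libraries stand in columns upstream of SERPINB5, at SERPINB5, SERPINB2, and SERPINB8, and past SERPINB10, and only 4 circles belong to EtOH libraries.

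The sites were uneven along the cluster. There were 5 sites from 49.3 kb upstream of SERPINB5 to its promoter, and 2 sites at the start of SERPINB8. Between them lay a stretch of 107.8 kb without a site that holds SERPINB12, a stretch of 97.9 kb that holds SERPINB13, SERPINB4, and SERPINB3, and a stretch of 66.4 kb that holds SERPINB2 and SERPINB10. Stretches of 91.8 kb after site 7 and 80.7 kb after site 9 also lacked a site, and hold no whole member. Sites 2 and 3 lie 0.2 kb apart, and sites 12 and 13 lie 0.1 kb apart. Each of them is counted as a separate site here, also in the density of sites and the motif shares. A promoter-proximal site, whose summit lies at most 1500 bp before or 250 bp after a TSS, was found for SERPINB5, SERPINB7, and SERPINB8, which are 3 of 10 members, beside 48.6% of all protein-coding genes. With distal sites within 50 kb of a TSS or over the gene body, 10 of 10 members were assigned a site, beside 77.9% of all protein-coding genes. This count fell to 6 when each site went to its nearest TSS only, to 4 with q ≤ 1e-10 or with peaks required in every replicate, and to 0 with equal list lengths. Neighboring members share sites in this count, so that they are not independent. By condition, a promoter-proximal site was confident in TAM for 2 members with S100A8-Flag and 3 with S100A9-Flag, beside 36.2% and 43.6% of all protein-coding genes. It was confident for none of the 10 in EtOH, beside 4.39% of genes with S100A8-Flag and 5.2% with S100A9-Flag, so that 0 of 10 is near the background.

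SERPINB5 (ENSG00000206075, chr18:61144191-61172318, plus strand) was the only member with a deposited peak at its promoter in all 11 libraries. The region of site 5 is chr18:61143842-61144384. Its fold enrichment with S100A8-Flag was 6.93 in EtOH 1 and 9.48 in EtOH 2, and 4.40, 5.51, and 6.59 in TAM 1, 2, and 3. With S100A9-Flag it was 6.62, 7.74, and 5.94 in EtOH 1, 2, and 3, and 10.1, 9.28, and 7.77 in TAM 1, 2, and 3. For S100A8-Flag both EtOH values were above the 3 TAM values, and for S100A9-Flag the 3 TAM values were above the 3 EtOH values. These values are each relative to the library's own input and were not tested between libraries. The peak had q ≤ 1e-07 in S100A8 EtOH 2 and S100A9 EtOH 2, and in all TAM libraries but S100A8 TAM 1. Its −log10 q was 11.5 in S100A8 EtOH 2 and 7.29 in S100A9 EtOH 2, and between 9.995 and 20.1 in the 5 TAM libraries. The summits lay between −192 and −33 bp from the TSS in all 11 libraries.

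**Figure D3:**
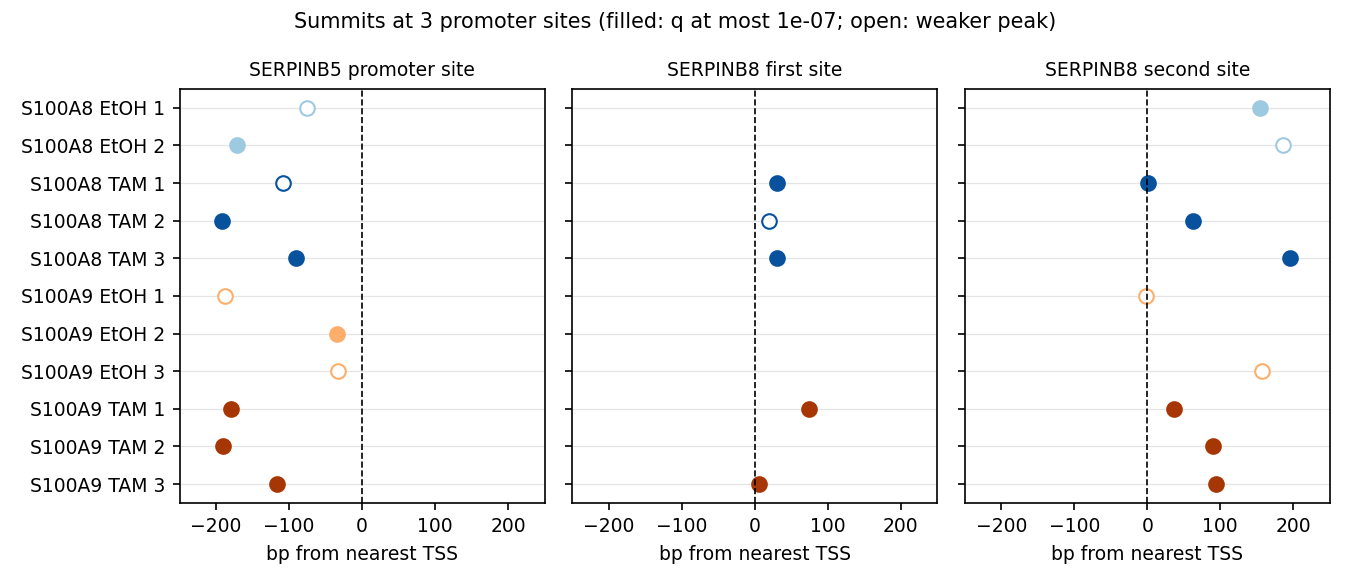
Position of the summit in each library at the SERPINB5 site and at both SERPINB8 sites, in bp from the nearest TSS (dashed line). Filled circles have q ≤ 1e-07, open circles are weaker peaks, and a line without a circle has no peak. SERPINB5 has a summit upstream of the TSS in all 11 libraries, the first SERPINB8 site has none in EtOH, and the second has them in 4 of 5 EtOH and 6 of 6 TAM libraries.

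Upstream of SERPINB5, 4 intergenic sites with summits 49.3, 32.9, 32.2, and 22.2 kb from the TSS had no peak of any q value in the EtOH libraries. Site 4 (chr18:61121839-61122056) was the most frequent of them. Its fold enrichment was 9.75, 14.7, and 5.36 in S100A8 TAM 1, 2, and 3, and 8.00, 9.28, and 10.9 in S100A9 TAM 1, 2, and 3. Only the peak of S100A8 TAM 3, with a −log10 q of 6.001, missed the q value threshold. The 6 summits lay within 45 bp of each other. Among the peaks of their libraries, the called peaks stood at the 78.7th and 97.6th percentiles of fold enrichment in S100A8 TAM 1 and 2, and at the 47.6th, 61.6th, and 86.3rd in S100A9 TAM 1, 2, and 3. The median percentile of the 53 TAM calls at the 13 sites was 54.4. Site 1 was called in 3 TAM libraries, site 2 in 4, and site 3 in 3, with fold enrichments between 6.33 and 10.5. At 49.3 kb, site 1 lies just inside the 50 kb limit, and an interval with 100 kb on each side has 15 sites in place of 13.

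SERPINB8 (ENSG00000166401, chr18:61637263-61687013, plus strand), whose start lies inside an intron of HMSD, had a pair of sites 0.1 kb apart at its start. Of this pair, only the second had peaks in EtOH libraries. Site 12 (chr18:61637165-61637511) has its summit 6 bp downstream of the first annotated TSS, in the 5′ UTR. It had no peak in any EtOH library, and its fold enrichment was 8.91, 4.53, and 8.79 in S100A8 TAM 1, 2, and 3, and 6.50 and 14.6 in S100A9 TAM 1 and 3. S100A9 TAM 2 had no peak there, and the peak of S100A8 TAM 2 was above the q value threshold. Site 13 (chr18:61637565-61638056) lies 0.6 kb into the gene, 90 bp downstream of another annotated TSS. Its fold enrichment was 9.01 and 4.74 in S100A8 EtOH 1 and 2, and 8.74, 6.57, and 8.51 in S100A8 TAM 1, 2, and 3. With S100A9-Flag it was 4.85 and 4.81 in EtOH 1 and 3, with no peak in EtOH 2, and 9.19, 10.6, and 4.59 in TAM 1, 2, and 3. Of the EtOH peaks only that of S100A8 EtOH 1 had q ≤ 1e-07, whereas all 6 TAM peaks did.

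SERPINB2 (ENSG00000197632, chr18:61538926-61571122, plus strand) had site 10 (chr18:61536664-61536982), which was called in all 6 TAM libraries and had no peak of any q value in EtOH. Called in all 6 TAM libraries and in no EtOH library at q ≤ 1e-07 was 1 of 13 sites (7.69%), this one, beside 4.69% of all sites. Its fold enrichment was 7.06, 4.92, and 8.44 in S100A8 TAM 1, 2, and 3, and 9.67, 6.85, and 5.32 in S100A9 TAM 1, 2, and 3. The −log10 q lay between 8.35 and 17.4. The peaks were of low to middle rank in their libraries, from the 1.57th to the 74.2nd percentile with a median at the 19.2nd. The 6 summits lay within 67 bp of each other, 2163 bp upstream of the earliest annotated TSS of SERPINB2 at the highest-ranked peak. This is outside the promoter window, and 18.2 kb upstream of the TSS of the MANE transcript, the reference transcript of the gene.

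Site 11 (chr18:61603424-61603777) lies just past the 3′ end of SERPINB10 (ENSG00000242550, chr18:61575192-61603345, plus strand), 28.4 kb from its TSS, and had peaks in 6 TAM libraries. Its fold enrichment was 10.6, 6.89, and 5.44 in S100A8 TAM 1, 2, and 3, and 4.05, 10.3, and 10.8 in S100A9 TAM 1, 2, and 3. Only S100A9 TAM 1 missed the q value threshold, and S100A9 EtOH 1 had a weaker peak of 7.49-fold.

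SERPINB7 (ENSG00000166396, chr18:61420169-61472610, plus strand) had a promoter-proximal site that was confident with S100A9-Flag in TAM alone. Site 8 (chr18:61442554-61442759) has its summit 4 bp downstream of the TSS of the MANE transcript, in the 5′ UTR and 22.5 kb downstream of the earliest annotated TSS. It was called in S100A9 TAM 2 with 8.75-fold and in S100A9 TAM 3 with 7.87-fold enrichment. S100A8 TAM 3 had a weaker peak of 5.00-fold there, and the other libraries had none. Site 9, in an intron of SERPINB7 and 10.7 kb from an annotated TSS, was called in S100A8 TAM 1 and in S100A9 TAM 2 and 3, and S100A8 EtOH 2 had a weaker peak. Its fold enrichment was 9.75, 7.23, and 15.9 in these 3 TAM libraries, at the 78.7th, 18.5th, and 98.3rd percentiles.

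**Figure D4:**
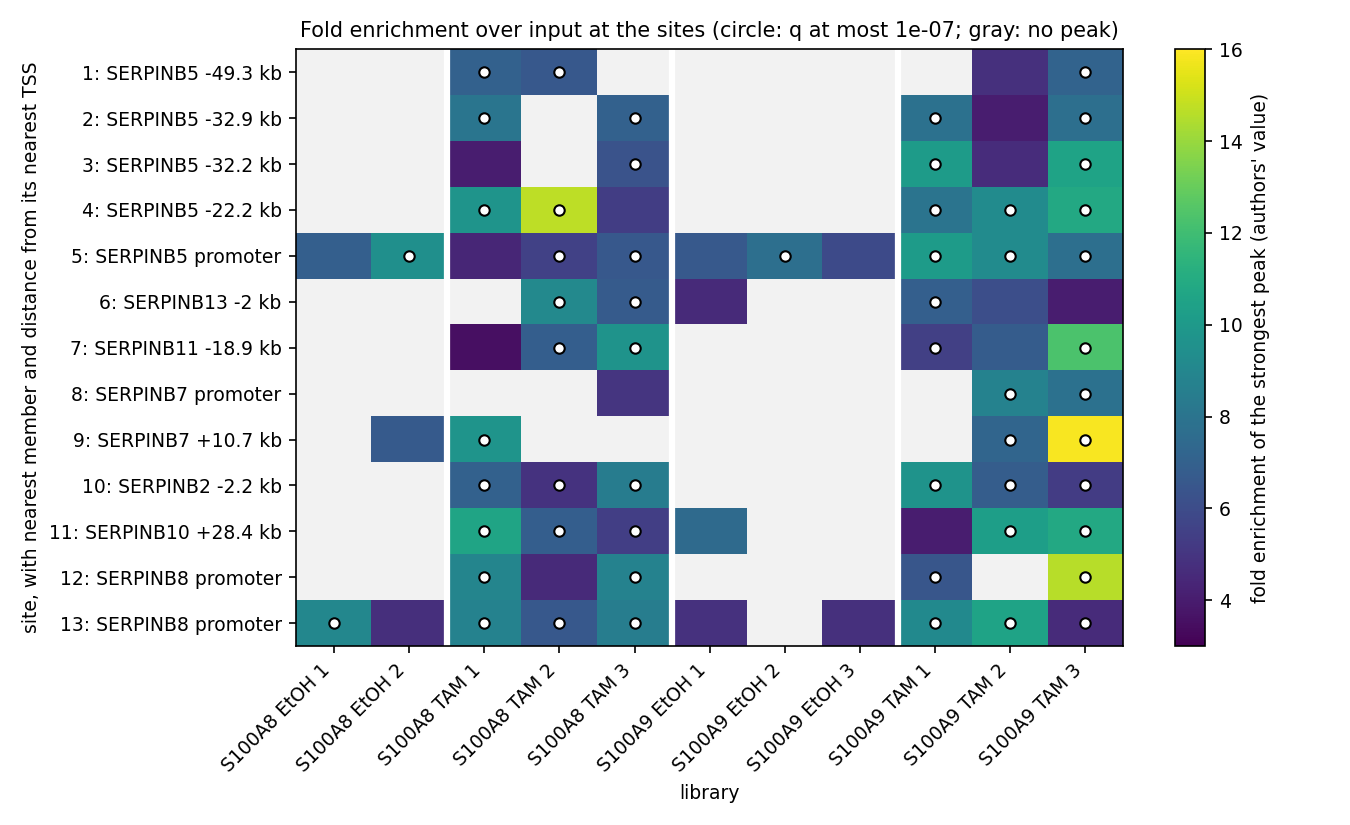
Fold enrichment over input at the 13 sites (rows, with the nearest member and the distance from its nearest TSS) in the 11 libraries (columns). Color gives the authors' value for the strongest peak, circles mark q ≤ 1e-07, and gray cells have no peak. The TAM columns hold 53 circles, unevenly over the sites, and the EtOH columns hold 3, at SERPINB5 and SERPINB8.

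The remaining members had no promoter-proximal site. At SERPINB13 (ENSG00000197641, chr18:61254223-61271873, plus strand), site 6 had its summit 1951 bp upstream of the TSS, outside the promoter window, and was called in S100A8 TAM 2 and 3 and in S100A9 TAM 1. Its promoter window held a single peak with q ≤ 1e-07, in S100A8 TAM 2 and 152 bp downstream of the TSS. The windows of SERPINB12, SERPINB4, SERPINB11, SERPINB3, SERPINB2, and SERPINB10 held no peak of any q value in any of 11 libraries. The share of all protein-coding genes without such a peak is not given here. For SERPINB12 (ENSG00000166634, chr18:61209602-61236562) the nearest site was 22.2 kb from a TSS. It lay past the end of the gene, 42.7 kb downstream of the TSS of the MANE transcript. SERPINB11 (ENSG00000206072, chr18:61314813-61393666) had site 7 in an intron, 19.6 kb upstream of the TSS of its MANE transcript. Site 7 was also the nearest site to SERPINB3 (ENSG00000057149, chr18:61322431-61329127), 21.5 kb upstream, and to SERPINB4 (ENSG00000206073, chr18:61304493-61311490), 39.1 kb upstream. Site 7 was called in 4 TAM libraries with fold enrichments between 5.49 and 12.3 and had a weaker peak in both other TAM libraries.

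The promoters of SERPINB3 and SERPINB4 may be readable only in part with these data, since uniquely mapped reads alone were kept. Read length is not in the lists. For this comparison, the promoter window was taken at the earliest annotated TSS of each member only. Over it, these promoters are identical at 97.6% of aligned positions, whereas the other 44 pairs of members are identical at 45.1% to 49.2%. In each of these 2 promoters, 48.8% of windows of 50 bases have another exact copy in the interval. The share is 13.2% in the SERPINB11 window, and the windows of the other 7 members have none. Promoters at other annotated TSSs, such as that of site 8 at SERPINB7, were not compared. Over the gene, the share was 21.9% for SERPINB3 and 21.3% for SERPINB4. Copies elsewhere in the genome were not counted, and the part of copies in the lack of peaks was not tested.

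Outside the 13 sites, 20 peaks with q ≤ 1e-07 belonged to a single library of their condition. One of them was the fourth EtOH peak, in S100A9 EtOH 3, in an intron of SERPINB5 and 2325 bp downstream of an annotated TSS, where no TAM library had a peak. At 2 positions both proteins had a single TAM library each. In an intron of SERPINB11, S100A8 TAM 3 had 5.79-fold and S100A9 TAM 3 had 9.94-fold enrichment at summits 49 bp apart. In the gap between SERPINB7 and SERPINB2, S100A8 TAM 1 had 6.81-fold and S100A9 TAM 1 had 6.92-fold enrichment at summits 7 bp apart. In S100A9 TAM 1, a peak 352 bp upstream of another annotated TSS of SERPINB8 had 6.16-fold enrichment.

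Consensus motifs within 100 bp of the summits were compared with those at all sites, as a description, since a match by letter does not show binding of a factor. The AP-1 motif TGAGTCA, bound by Jun and Fos proteins, was found on either strand at 7 of 13 sites, beside 25.8% of all sites. These were sites 1, 2, 3, 4, 8, 9, and 12, which include all 4 intergenic sites upstream of SERPINB5. Among the 9 distal sites, 5 had it, at most 25 bp from the summit, beside 34.9% of distal sites in the genome. The ETS motif CGGAAG was found at 5 of 13 sites, beside 13.2%. Of the 4 promoter-proximal sites 3 had it, at SERPINB5 and at both sites of SERPINB8, beside 25.4% of promoter-proximal sites. The C/EBP motif TTGCNNAA was found at 2 sites (11.8% of all sites), the STAT3 motif TTCNNNGAA at 2 (5.68%), the KLF/SP1 motif CCCCGCCC at 1 (10.5%), and the CTCF motif at 1 (11.1%). The CREB motif TGACGTCA was not found at the 13 sites, beside 1.18% of all. Sites 6 and 7 had none of the motifs searched.

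Other genes of the family and of the plasminogen system, chosen by name, differed in their promoter peaks. All but SERPINB9 had a promoter-proximal site, beside 48.6% of all protein-coding genes. On chromosome 6, the promoter of SERPINB1, which encodes an inhibitor of neutrophil elastase, had a peak with q ≤ 1e-07 in 6 of 6 TAM libraries and 0 of 5 EtOH libraries. The promoter of SERPINB6, an inhibitor of cathepsin G, had one in 4 TAM libraries and 1 EtOH library, and that of SERPINB9, the granzyme B inhibitor, in none. For the target proteases of SERPINB2, the promoter of PLAU (urokinase) was called in 5 TAM libraries and that of PLAT (tissue plasminogen activator) in 4, both without an EtOH library. The promoter of PLAUR, the urokinase receptor, was called in 6 TAM and 3 EtOH libraries. The promoters of HMSD and ENSG00000289724, the other genes in the interval, had no peak with q ≤ 1e-07.

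Peak density was compared with that of 4 other gene clusters, taken with the same flanks. The intervals with flanks differ in length, from 240 kb for the SERPINB genes of chromosome 6 to 1209 kb for the cornified envelope genes. Flanks are therefore a larger part of the short intervals, and peaks in them were not counted apart. In the SERPINB interval the TAM libraries had between 14.0 and 31.1 peaks per Mb (median 17.1) and the EtOH libraries between 0 and 1.56. The CXCL chemokine cluster on chromosome 4 had a median of 16.4 and the cornified envelope genes on chromosome 1 of 19.0 peaks per Mb in TAM. Their mean differences from the SERPINB interval, 0.227 and −0.05 peaks per Mb, were small beside the spread between libraries, and each was higher in 3 of 6 libraries (exact permutation test with both values exchanged within a library, p = 0.781 and 0.938, Benjamini-Hochberg adjusted p = 0.938 for both). The IL1 and IL36 cluster on chromosome 2 had a median of 23.9 peaks per Mb, and the interval of the SERPINB genes of chromosome 6 of 43.8. Both were denser than the SERPINB interval of chromosome 18 in 6 of 6 TAM libraries, by 9.95 and 26.5 peaks per Mb in the mean. The exact permutation test gave p = 0.03125 for both, the smallest that 64 arrangements allow. The adjusted p was 0.0625 over the 4 clusters, so that neither passed 0.05. This test measures the spread between libraries at fixed intervals, and not the spread between gene clusters.

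**Figure D5:**
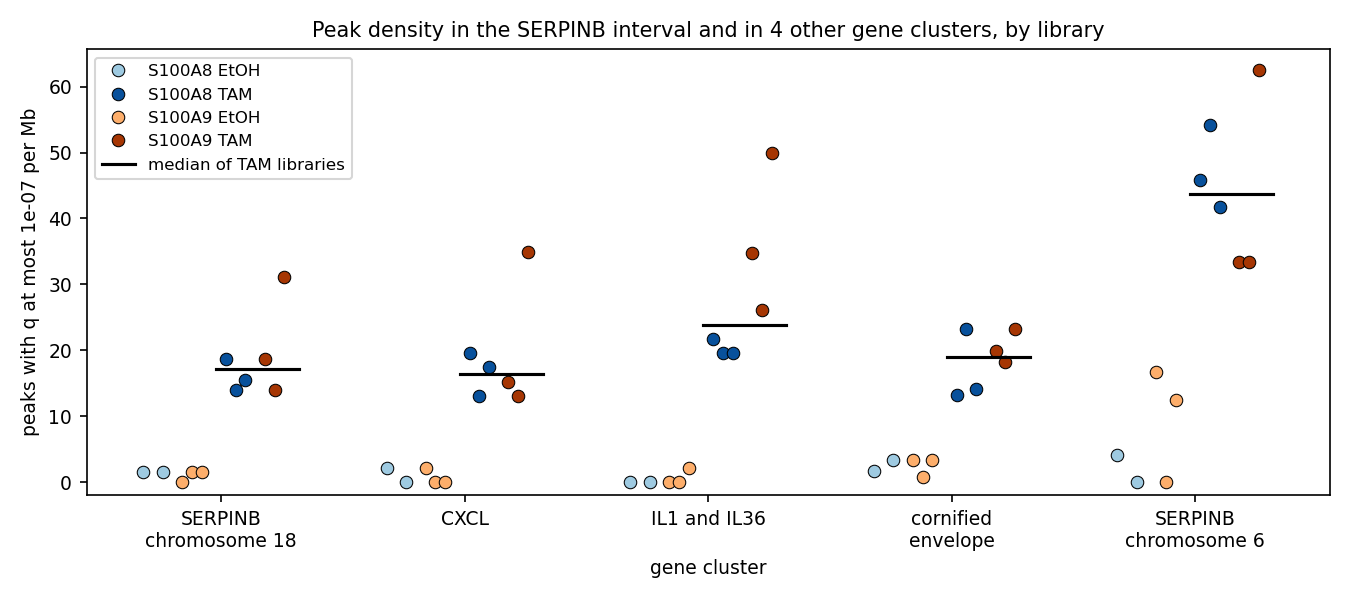
Peaks with q ≤ 1e-07 per Mb in the SERPINB interval of chromosome 18 and in 4 other gene clusters. Each circle is a library, and the black line is the median of the 6 TAM libraries. The medians are 17.1 in the SERPINB interval, 16.4 in the CXCL cluster, 23.9 in the IL1 and IL36 cluster, 19.0 at the cornified envelope genes, and 43.8 at the SERPINB genes of chromosome 6. All intervals include their flanks.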

How the data were processed

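Flag ChIP libraries of MCF-10A–ER-Src cells were grouped by tagged protein and treatment as GEO labels them. The authors used Bowtie2 for alignment to hg19 and MACS2 for peak calling in each library against its own input, on reads that map uniquely, with versions not given in the sources used here. The deposited lists give each peak's fold enrichment as a ratio over input, the −log10 of its p and q values, a score, and the summit offset. They reach q = 0.05, and the authors' additional filter of peaks by read number was not used here. Replicates are labelled as biological, but separate cultures are not described, so that p values measure the spread between these samples.

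Only peaks with q ≤ 1e-07 were kept, on chromosomes 1 to 22 and X. Regions with peaks of at least 2 replicates, overlapping by at least 1 bp, were sites, and sites of the 4 conditions were merged. Genes, TSSs, and exons were those of GENCODE 44 lifted to GRCh37, and sequences were read from GRCh37. The members, lists, and motifs were chosen with earlier results of these data known. Named were all members, the family genes of chromosome 6, plasminogen activator genes, and other genes of the interval. Values per library were given for sites at member promoters, sites called in EtOH, and the 6 sites called in most libraries, with ties decided by the highest mean −log10 q in TAM.

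Libraries were permuted exactly within each protein, two-sided by doubling the smaller tail, in Python 3.11.15 with NumPy 2.4.6 and SciPy 1.17.1. Site tests were adjusted over 30322 sites by the Benjamini-Hochberg method. Merging and permutation were tested on simulated data. Alternatives were other q thresholds, equal list lengths, flanks, replicate numbers, summit windows, TSS and gene assignments, a replicate block, and the omission of each library.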

Additional observations from a re-analysis of the deposited data

How the results depend on the processing

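The difference in peaks between TAM and EtOH kept its direction and passed p = 0.05 (exact permutation test) with other flanks and without any 1 library, where it lay between 9.58 and 12.3, lowest without S100A9 TAM 3. The labels do not say whether EtOH and TAM replicates of the same number were pairs. Their deviations at all sites correlated between −0.0145 and 0.00489 over 5 pairs, and 1 EtOH library correlated best with its own number. So few libraries with short EtOH lists cannot decide whether they were pairs. With a replicate block, which leaves out S100A8 TAM 3, the difference was 11.25 (exact permutation p = 0.0625, the smallest the block allows). That of the share per 10000 peaks was 1.80 (exact permutation p = 0.125). With q ≤ 1e-10 the share differed by 0.956 (exact permutation p = 0.43), and without single libraries by 1.29 to 2.64, lowest without S100A9 EtOH 1. With 1853 peaks in each list, the difference was −0.5 peaks, or −2.70 per 10000 as the same count rescaled.

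Without single libraries, the difference was 8.5 to 10 for S100A8-Flag, 9.83 to 15.3 for S100A9-Flag, and 0.167 to 5.67 between the proteins in TAM. The 13 sites became 23 with every deposited peak, 8 with q ≤ 1e-10, 8 without flanks, 31 with 1 replicate, 5 with every replicate, and none with equal lists. They were 10 to 13 without single libraries, an alternative added after the data were seen, which left 2 or 3 members with a promoter-proximal site and 8 to 10 with any. Members with any site fell from 10 to 4 with q ≤ 1e-10, 4 with every replicate, 6 with the nearest TSS only, and 0 with equal lists. Members with a promoter-proximal site fell from 3 to 2 with q ≤ 1e-10, with every replicate, or with the gene start as the only TSS. They were 4 with 1 replicate and 0 with equal lists. Causes beyond fewer peaks, libraries, or TSSs were not tested. Depth is unknown, so that absent peaks in EtOH are peaks not detected in these lists.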
